A study of Mus musculus with 34 samples.

Results

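The 7 genes described here make, store, take up and break down histamine and serotonin: *Hdc*, *Tph1*, *Ddc*, *Slc18a2*, *Slc6a4*, *Maob* and *Hnmt*. They were chosen by name from the 25853 genes listed in the tables, and all 7 were listed. Their transcripts were counted in single mast cells (MCs) from ear skin of male mice aged 7 weeks, by mCEL-Seq2, in which each captured RNA molecule carries a unique molecular identifier (UMI) next to its 3′ end. The WT group was 3 littermate controls that carried Mcpt5-Cre and the R26 LSL:YFP reporter and an intact *Tln1* gene, and the *Tln1* ∆MC group was 3 mice with the same Cre and reporter and *Tln1* fl/fl. *Tln1* encodes talin-1, which activates integrins. In both groups the Cre, under a promoter active in connective tissue MCs, switched on YFP, and all MCs were sorted as CD45+ Lin- YFP+ cells. A further sample was CD45- GFP+ cells of *Myh11*-GFP ear skin, a gate for vascular smooth muscle cells and pericytes, whose number of mice was not given in the labels. The labels give C57BL/6J for all 3 groups, and the study's methods place the Mcpt5-Cre *Tln1* fl/fl line and its YFP reporter cross on the albino form of C57BL/6J.

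MCs hold histamine in their granules, and those of rodents also hold serotonin. *Hdc* encodes histidine decarboxylase, the enzyme that makes histamine from histidine. Serotonin is made from tryptophan in a pair of steps, by the tryptophan hydroxylase TPH1 and then by the aromatic amino acid decarboxylase DDC. *Slc18a2* encodes the vesicular monoamine transporter VMAT2, which loads both amines into granules, and *Slc6a4* encodes the serotonin transporter SERT, which carries serotonin into the cell. *Maob* encodes monoamine oxidase B, a mitochondrial enzyme that oxidises amines, and *Hnmt* encodes histamine N-methyltransferase, which inactivates histamine inside cells.

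The 250 bases before the transcription start are shown for *Hdc*, *Slc6a4* and *Ddc*, each of which passed a test below, and for *Slc18a2*, whose product loads both amines, so that the promoters can be set beside the values. They are RefSeq sequences of GRCm38.p6, which matched 6 of the 7 members, all but *Maob*, and each reads 5′ to 3′ on the strand of its gene. Capitals mark GATAA or GATAG on either strand, letters of the kind bound by GATA factors such as the MC factor GATA2. The windows are chr2:126618679-126618928 on the minus strand for *Hdc*, chr11:76998347-76998596 on the plus strand for *Slc6a4*, chr11:11898145-11898394 on the minus strand for *Ddc* and chr19:59260628-59260877 on the plus strand for *Slc18a2*.
Hdc: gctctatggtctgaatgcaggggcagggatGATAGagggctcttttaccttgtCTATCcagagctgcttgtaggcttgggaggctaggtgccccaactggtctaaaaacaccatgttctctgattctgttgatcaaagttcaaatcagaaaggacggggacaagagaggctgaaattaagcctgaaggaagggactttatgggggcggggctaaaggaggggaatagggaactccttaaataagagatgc
Slc6a4: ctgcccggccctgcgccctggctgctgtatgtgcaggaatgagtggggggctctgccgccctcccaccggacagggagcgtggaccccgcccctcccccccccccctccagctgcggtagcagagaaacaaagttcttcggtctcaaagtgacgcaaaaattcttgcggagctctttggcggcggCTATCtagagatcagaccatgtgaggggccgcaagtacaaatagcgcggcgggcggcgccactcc
Ddc: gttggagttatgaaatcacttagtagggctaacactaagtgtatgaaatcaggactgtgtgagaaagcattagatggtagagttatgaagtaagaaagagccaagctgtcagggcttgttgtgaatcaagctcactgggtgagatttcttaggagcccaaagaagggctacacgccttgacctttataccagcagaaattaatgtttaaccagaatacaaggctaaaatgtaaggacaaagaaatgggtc
Slc18a2: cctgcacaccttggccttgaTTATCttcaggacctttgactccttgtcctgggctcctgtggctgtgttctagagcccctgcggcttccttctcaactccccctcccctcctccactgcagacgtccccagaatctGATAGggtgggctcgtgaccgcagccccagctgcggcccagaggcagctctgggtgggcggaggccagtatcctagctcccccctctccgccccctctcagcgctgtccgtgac
The *Hdc* window held 2 matches, that of *Slc18a2* 2, that of *Slc6a4* 1 and that of *Ddc* 0, whereas 37.4% of 32851 RefSeq windows of this length held at least 1. The letters CATGTG, a form of the E-box that MITF can bind, occurred 1 time in the *Slc6a4* window and on neither strand of the other 3, against 12.3% of all windows. The *Hdc* window lies within the *Hdc* gene of the GENCODE M21 annotation, which begins 621 bases upstream of the RefSeq transcription start that the window precedes.

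Cells were kept if they had over 1000 transcripts. The WT mice then gave 338, 294 and 272 MCs. The *Tln1* ∆MC mice gave 285, 354 and 934, for a sum of 2477 MCs, and the *Myh11*-GFP sample had 330 cells. Genes named Gm and a number, which are predicted genes, held between 14.2% (*Tln1* ∆MC mouse 3) and 58.01% (WT mouse 3) of transcripts, so every level is given per 10000 transcripts outside them. Because the UMIs count 3′ ends, the levels need no division by gene length. Totals outside Gm genes were 699401 to 5238325 transcripts per mouse. *Tln1* was at 4.51, 5.92 and 6.71 per 10000 in the WT mice and at 5.57, 4.33 and 3.63 in the *Tln1* ∆MC mice, and since counting at the 3′ end need not read the deleted exons, this does not check the genotype. All 8 MC markers (*Cpa3*, *Kit*, *Fcer1a*, *Ms4a2*, *Mcpt4*, *Cma1*, *Tpsb2* and *Gata2*) were found, with a summed level of 581 to 794 per 10000 per mouse. Of the basophil list, *Mcpt8* and *Prss34* reached at most 0.272 and 0.0347 per 10000. Its other genes were higher, with *Cd200r3* at 3.65 to 5.93, *Cd69* at 1.78 to 3.28 and *Itga2* at 0.349 to 1.13. Of the platelet list, *Ppbp*, *Gp9* and *Gp1bb* reached at most 0.0128, 0.0115 and 0.0143, whereas *Itga2b* was at 3.13 to 4.48. The libraries use the same plate barcodes, with 42 to 96 places in common in 272 pairs of libraries, and 0 cells had the same values as another cell.

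Several libraries and barcodes stood apart. In library 3 of WT mouse 2, 10 of 81 cells had at least 1% of their transcripts from macrophage or keratinocyte markers, which summed to 90.9 and 55.7 per 10000. Over all MC libraries, 32 cells reached 1% for macrophage and 15 for keratinocyte markers. There were 5 barcodes with over 30000 transcripts, and the next highest had 29067. The highest, with 431991 transcripts in library 8 of *Tln1* ∆MC mouse 3, gave 43.8% of that library's transcripts outside Gm genes and had keratinocyte markers at 256 per 10000 and MC markers at 26.5. Results are therefore also given without these cells or barcodes where they change.

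*Hdc* was the highest of the 7 genes in every mouse, and the 7 genes fell into an order that hardly varied. *Hdc* was at 64.7, 52.2 and 62.9 per 10000 in WT mice 1, 2 and 3 and at 71.9, 63.5 and 51.2 in the *Tln1* ∆MC mice. Thus 68.9% to 74.9% of the transcripts of the 7 genes came from the enzyme of histamine synthesis. Without the 5 largest barcodes the *Hdc* levels were 64.7, 57.6 and 67.8 in the WT and 71.9, 63.5 and 56.3 in the *Tln1* ∆MC mice. *Hdc* lies on chromosome 2 of GRCm38 from 126593667 to 126619299.

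Both enzymes of serotonin synthesis were low. *Tph1* was at 2.43, 1.27 and 1.70 per 10000 in the WT mice and at 1.51, 0.849 and 1.33 in the *Tln1* ∆MC mice. *Ddc*, which comes after TPH1 in the path, was at 1.81, 2.07 and 2.25 in the WT and at 1.58, 1.77 and 1.44 in the *Tln1* ∆MC mice. *Hdc* transcripts were 25.2 to 45.6 times as many as those of *Ddc*, a related decarboxylase. *Tph1* lies on chromosome 7 from 46644641 to 46672537 and *Ddc* on chromosome 11 from 11814101 to 11898144.

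The transporter genes lay between *Hdc* and the serotonin enzymes. *Slc6a4* (chromosome 11 from 76998603 to 77032340) was at 10.7, 12.8 and 12.3 per 10000 in the WT mice and at 12.2, 9.57 and 10.1 in the *Tln1* ∆MC mice. Its transcripts were 4.39 to 11.3 times as many as those of *Tph1*, and after *Hdc* it was the highest of the 7 genes in 6 of 6 mice. *Slc18a2* (chromosome 19 from 59260896 to 59296012) was at 8.45, 4.66 and 4.22 in the WT and at 8.31, 6.67 and 6.51 in the *Tln1* ∆MC mice. WT mouse 1 and *Tln1* ∆MC mouse 1 had the highest *Slc18a2* of their groups, and these mice also shared a pattern in the barcodes not in use that the other 4 did not (r = 0.448 over genes, against at most 0.311 for other pairs).

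Of the genes of breakdown, *Maob* (chromosome X from 16709282 to 16817366) was at 3.86, 2.73 and 2.82 per 10000 in the WT mice and at 3.53, 2.45 and 2.89 in the *Tln1* ∆MC mice. *Maoa*, for the other monoamine oxidase, was lower, with *Maob* 4.80 to 18.3 times as many transcripts. *Hnmt* (chromosome 2 from 24002910 to 24049394) was at 0 to 0.0436 per 10000 by mouse, from 16 UMIs in all. Of these, 4 UMIs fell in the 32 cells with macrophage markers and 9 in the 15 cells with keratinocyte markers, at 0.206 and 0.175 per 10000. Most of the 9 came from the largest barcode, in library 8 of *Tln1* ∆MC mouse 3, and a barcode of 94843 transcripts in library 3 of WT mouse 2. These barcodes held 6.00 and 2.00 *Hnmt* transcripts. The 2432 MCs high in neither marker list held 3 UMIs, a level of 0.00326 per 10000 (exact Poisson 95% interval 0.000672 to 0.00953, counting error only).

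The order was *Hdc*, *Slc6a4*, *Slc18a2*, *Maob*, *Ddc*, *Tph1* and *Hnmt*. The ranges over the 6 mice of neighbours in this order did not overlap, except those of *Ddc* and *Tph1*, of which *Ddc* was higher in 5 of 6 mice. The nearest of the others were *Maob*, at 2.45 in its lowest mouse, and *Ddc*, at 2.25 in its highest. The coefficient of variation over the 6 mice was 11.9% for *Slc6a4* and 13.01% for *Hdc*, and 34.98% for *Tph1*.

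**Figure D1:**
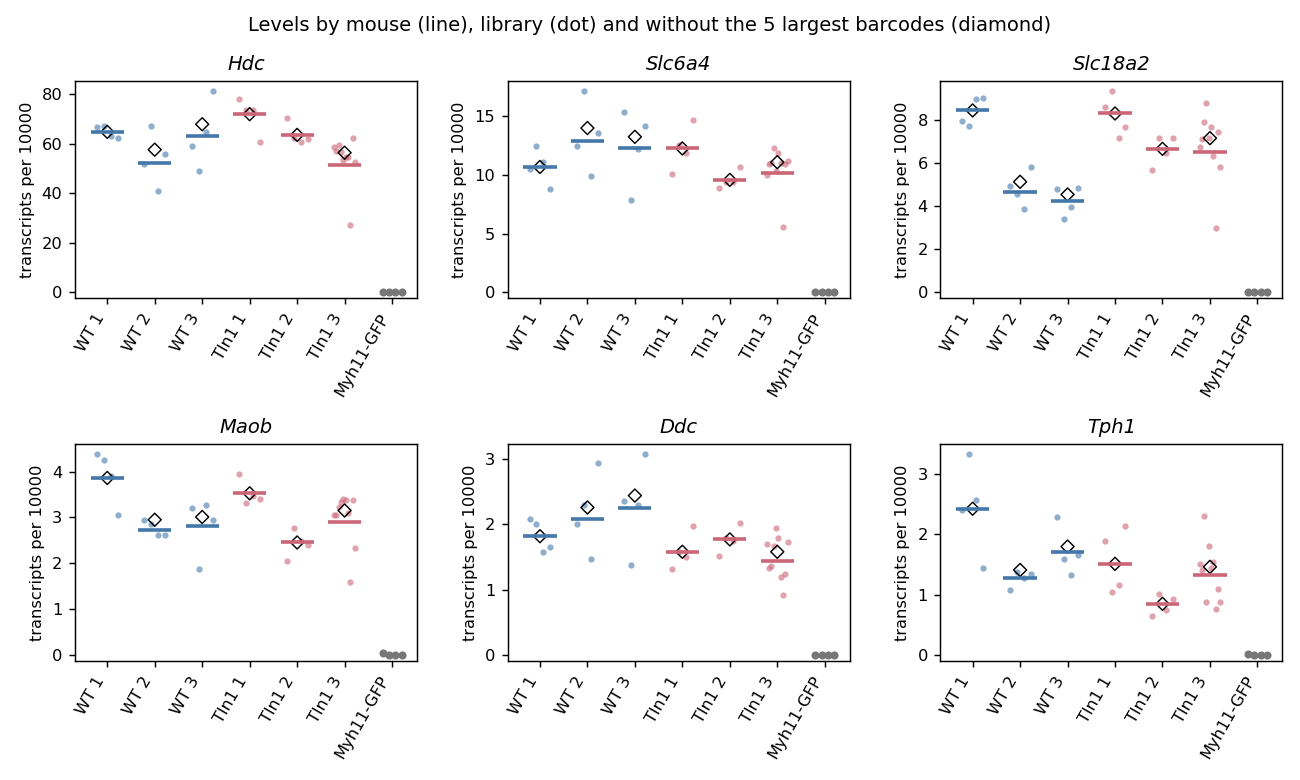
Levels of 6 of the genes in transcripts per 10000 outside Gm genes, by mouse and for the *Myh11*-GFP cells (linear axes, 1 panel a gene): lines are mice, dots libraries and diamonds the level without the 5 largest barcodes. *Hdc* lies between 51.2 and 71.9 in the 6 mice and at most at 0.0418 in a *Myh11*-GFP library, and the library of *Tln1* ∆MC mouse 3 with the largest barcode lies lowest for *Hdc* at 27.3.

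At 1 depth for every cell, *Hdc* was found in most MCs and the serotonin enzymes in few. Cells were thinned to 1000 UMIs, which left out 3 cells of all, and the share with at least 1 UMI was then 74.2% to 94.6% by mouse for *Hdc*. The shares were 34.1% to 53.3% for *Slc6a4*, 16.5% to 44.3% for *Slc18a2*, 13.6% to 22.2% for *Maob*, 8.61% to 11.6% for *Ddc* and 4.24% to 10.2% for *Tph1*. Gm genes took part of the 1000 UMIs: thinned to 1000 UMIs outside them, which left out 282 MCs, the share was 92.8% to 97.4% for *Hdc*, 47.7% to 72.1% for *Slc6a4* and 9.03% to 17.8% for *Tph1*. Before thinning, *Hdc* was found in 89.3% to 99.6% of cells. Of 329 *Myh11*-GFP cells thinned alike, 0 had *Hdc*, *Slc6a4*, *Slc18a2* or *Ddc*, so that shares up to 0.912% are allowed, and 1 had *Tph1* (0.304%). Median UMIs were 5018 in MCs and 4515.5 in *Myh11*-GFP cells.

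*Hdc* varied among cells of a mouse more than the counting of UMIs alone gives. At 1000 UMIs outside Gm genes, the median cell had *Hdc* at 50 to 60 per 10000 by mouse, the 10th percentile lay at 10 to 20 and the 75th at 80 to 100. The ratio of variance to mean of *Hdc* UMIs, which is 1 for counting alone, was 2.09 to 3.93 by mouse. For *Slc6a4* it was 1.10 to 1.505. The ratio can rise with the mean, which was 57.6 to 69.2 per 10000 for *Hdc* and 7.29 to 13.5 for *Slc6a4*. It thus does not show which of these genes varied more between cells. The genes were not found in separate cells: at this depth *Slc18a2* was found in 32.4% to 54.5% of cells with *Slc6a4* and in 31.5% to 53.6% of those without, with the first share higher in 5 of 6 mice. *Tph1* was found in 8.47% to 22.2% of cells with *Ddc* and in 8.96% to 17.1% of those without, higher in 4 of 6 mice. *Maob* was found more often in cells with *Hdc* in 6 of 6 mice, 21.1% to 34.5% against 9.09% to 33.3%, where the cells without *Hdc* were few.

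The *Myh11*-GFP cells served as cells without MC identity. Vascular smooth muscle markers summed to 79.1 to 107 per 10000 in their libraries, pericyte markers to 118 to 125 and fibroblast markers to 107 to 232. They held 2 UMIs of *Hdc*, both in 1 cell, a level of 0.0139 per 10000 (exact Poisson 95% interval 0.00168 to 0.0502), and the MC mean was 4399 times as high (1218 to 36320 by that interval). *Ddc* and *Slc6a4* had 0 UMIs, for which 3 counts over the group give a limit of 0.0208 per 10000, so that the MC means of 1.82 and 11.3 were at least 87.4-fold and 541-fold higher. *Tph1* had 1 UMI, *Slc18a2* 1 and *Maob* 2. *Hnmt* was the exception, with 7 UMIs and 0.0486 per 10000 (0.0195 to 0.1001), found in each of the 4 libraries at 0.0418 to 0.0551. No test was made, because the number of mice behind these cells is unknown.

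The first comparison asked whether loss of talin-1 in MCs moved the histamine and serotonin genes. None of the 6 members that could be tested passed the test, in a comparison in which 0% of 8601 genes did (limma, Benjamini-Hochberg adjusted p under 0.05, with 527 genes at an unadjusted p under 0.05). *Hdc* was at 59.9 ± 6.77 (SD, n = 3) per 10000 in WT and 62.2 ± 10.4 (n = 3) in *Tln1* ∆MC mice, with overlapping groups and a log2 fold change of 0.10 (95% interval -0.40 to 0.60, limma adjusted p = 0.970). This interval leaves room for a change of either sign and does not show that the groups were alike. *Slc6a4* was at 11.9 ± 1.12 and 10.6 ± 1.41 (log2 fold change -0.12, -0.55 to 0.32). *Slc18a2* was at 5.78 ± 2.33 and 7.16 ± 0.997 (0.42, -0.11 to 0.96) and *Maob* at 3.14 ± 0.630 and 2.96 ± 0.539 (-0.03, -0.45 to 0.39). Both enzymes of serotonin synthesis had negative estimates, *Tph1* with 1.80 ± 0.584 and 1.23 ± 0.343 (-0.49, -1.06 to 0.09) and *Ddc* with 2.04 ± 0.217 and 1.59 ± 0.163 (-0.30, -0.75 to 0.14). *Ddc* was the one member whose WT and *Tln1* ∆MC mice did not overlap, and 11.6% of the 8601 genes did not overlap either. By exact two-sided permutation of the mice, which cannot go below 0.1 for 3 against 3, p was 0.1 for *Ddc*, 0.2 for *Slc6a4*, 0.3 for *Tph1*, 0.4 for *Slc18a2*, 0.7 for *Maob* and 0.9 for *Hdc*. Of the markers of other cells, the sum of the 5 fibroblast markers did not overlap between genotypes. It was at 18.0 to 68.6 per 10000 in the WT and at 0.833 to 9.37 in the *Tln1* ∆MC mice. The ranges of the macrophage list, 2.10 to 40.6 and 1.19 to 7.34, overlapped, as did those of the keratinocyte list. The sums of these lists were not tested between genotypes, and neither was their part in the result. Mouse 1 of each genotype formed the first set by the barcodes not in use: the difference of *Tln1* ∆MC minus WT in *Slc18a2* was -0.141 per 10000 within this set (8.31 and 8.45) and 2.15 within the other (means of 6.59 and 4.44), and in *Ddc* -0.238 and -0.556. The first set has 1 mouse of each genotype and the second 2, too few for a test within a set.

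The second comparison asked whether the genes went with the proteases that fill MC granules. Cells of each mouse were ranked by their summed level of *Cma1*, *Mcpt4*, *Tpsb2*, *Cpa3* and *Tpsab1*, and the top and the bottom of 3 equal groups were compared with the mouse as a block. *Slc6a4*, *Ddc* and *Maob* were higher in cells high in proteases, 3 of 6 members tested, where 7.12% of 7111 genes were higher and 5.23% lower. *Slc6a4* rose from 4.26 to 15.1, 8.39 to 18.5 and 8.19 to 16.96 per 10000 in WT mice 1, 2 and 3 and from 10.53 to 15.4, 6.35 to 12.5 and 7.08 to 12.9 in the *Tln1* ∆MC mice. All 6 mice moved one way, and the lowest high side lay above the highest low side, which held for 3.26% of genes. Its log2 fold change was 1.03 (SE 0.15, 6 mice, limma adjusted p = 0.000820).

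*Ddc*, the decarboxylase of serotonin synthesis, rose from 1.11 to 2.54, 1.44 to 2.65 and 1.66 to 2.97 in the WT mice and from 0.974 to 2.31, 1.27 to 2.21 and 0.987 to 1.91 in the *Tln1* ∆MC mice. Its sides did not overlap, and its log2 fold change was 0.95 (SE 0.14, limma adjusted p = 0.00102). *Maob* rose from 2.32 to 4.64, 2.48 to 3.15 and 1.41 to 3.84 in the WT mice and from 3.46 to 4.51, 1.94 to 2.90 and 2.30 to 3.66 in the *Tln1* ∆MC mice. Its sides overlapped over mice though each mouse moved one way, with a log2 fold change of 0.70 (SE 0.16, limma adjusted p = 0.0103). The other members did not pass: *Slc18a2* had 0.46 (SE 0.15, limma adjusted p = 0.0572, higher in 5 of 6 mice), *Hdc* 0.25 (SE 0.13, adjusted p = 0.216, higher in 5 of 6) and *Tph1* 0.17 (SE 0.18, adjusted p = 0.561, higher in 4 of 6).

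The protease list itself, by which the cells were ranked, was at 366 and 977 per 10000 (medians over mice). The sides also differed in other measures. Medians were 1773 transcripts outside Gm genes per cell on the low side and 3147 on the high side, with 60.5% and 35.3% of transcripts from Gm genes. Macrophage markers summed to 11.7 and 1.51 per 10000 and keratinocyte markers to 15.8 and 0.451. Without the cells high in either list, *Slc6a4* remained higher by 0.77 and *Ddc* by 0.69 on the log2 scale, both past the threshold, and *Maob* by 0.45 with a limma adjusted p of 0.0603. Without the 5 largest barcodes the values were 0.84 for *Slc6a4*, 0.76 for *Ddc* and 0.53 for *Maob*, all past the threshold, whereas *Hdc* had 0.04 and *Slc18a2* 0.25. *Maob* also missed the threshold without WT mouse 1 (0.60, limma adjusted p = 0.0704) and with cells thinned to 1000 UMIs (0.48, adjusted p = 0.298), and *Slc18a2* passed it without *Tln1* ∆MC mouse 2 (0.57, adjusted p = 0.0298) and without TMM scaling (0.49, adjusted p = 0.0431). Depth and Gm share were not made equal in the other fits, and their part in the result was not tested.

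**Figure D2:**
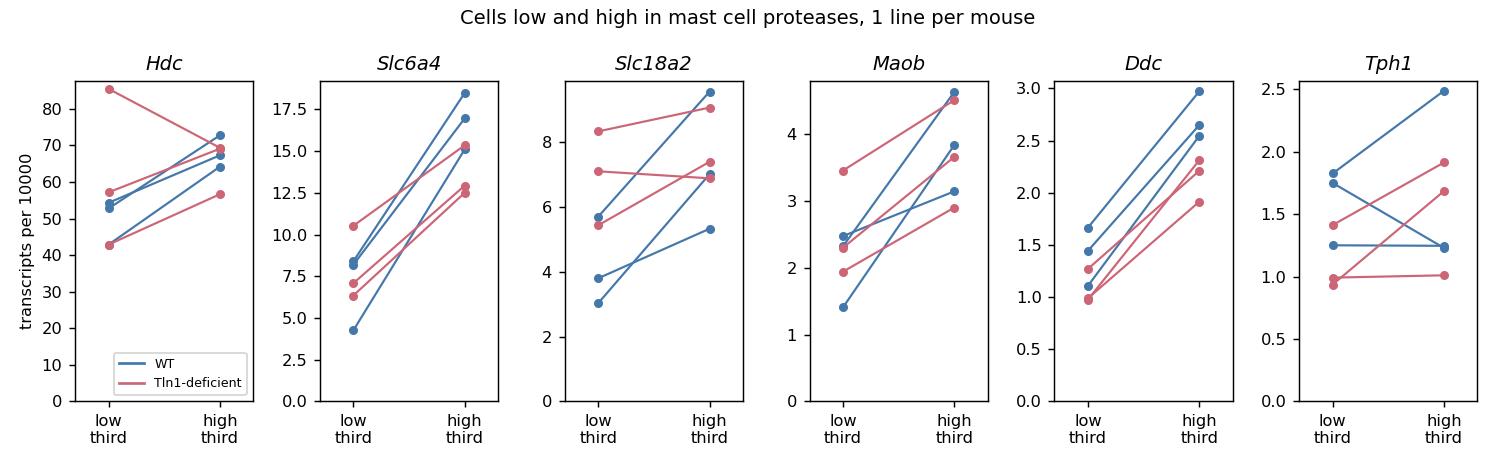
Levels in transcripts per 10000 outside Gm genes in the bottom (left) and top (right) of 3 equal groups of cells ranked by protease level, 1 panel a gene, 1 line a mouse, WT in blue and *Tln1* ∆MC in red, with axes from 0. *Slc6a4*, *Ddc* and *Maob* go up in 6 of 6 mice, and *Hdc* goes from 85.5 down to 69.3 in *Tln1* ∆MC mouse 1.

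Whether members differed from each other in this split was tested on the log2 ratios of the 6 mice, in 5 pairs. The ratio of *Slc6a4* exceeded that of *Hdc* by 0.78 ± 0.32 (SD) and that of *Ddc* exceeded *Hdc* by 0.70 ± 0.44, in 6 of 6 mice each, with an exact two-sided sign-flip p of 0.0312, the smallest that 6 mice allow, and 0.0521 after Benjamini-Hochberg adjustment over the 5 pairs. *Ddc* exceeded *Tph1*, the gene of the step before it, by 0.78 ± 0.40 with the same exact p. *Maob* exceeded *Hdc* by 0.45 ± 0.46 in 5 of 6 mice (exact p = 0.0625) and *Slc18a2* by 0.21 ± 0.33 in 5 of 6 (exact p = 0.188). No adjusted value went below 0.05. The difference of the split between genotypes passed the test for 0.0141% of 7111 genes and for no member: *Slc18a2* had an interaction of -0.66 and *Slc6a4* of -0.56 (unadjusted limma p 0.0184 and 0.0476, adjusted p 0.829 for both).

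The third comparison ranked the cells of each mouse by 12 immediate early genes such as *Fos* and *Egr1*, which rise when cells are stimulated or taken out of tissue. No member passed the test, against 5.54% of 6988 genes, 3.33% higher and 2.2% lower, and no member's sides were apart over the mice, against 2.42% of genes. *Hdc* came nearest: it was at 47.2 and 79.7, 45.8 and 57.7, and 69.7 and 65.3 per 10000 on the low and high sides of WT mice 1, 2 and 3, and at 64.9 and 81.4, 56.9 and 74.3, and 41.9 and 62.3 in the *Tln1* ∆MC mice. It was thus higher in 5 of 6 mice, all but WT mouse 3, with a log2 fold change of 0.35 (SE 0.11, limma adjusted p = 0.0758). Without WT mouse 3 it passed (0.46, adjusted p = 0.0212), as it did with the top and bottom of 2 equal groups (0.33, adjusted p = 0.0167) and with cells of over 1000 transcripts outside Gm genes (0.36, adjusted p = 0.0481), whereas without the largest barcodes it had 0.27 (adjusted p = 0.122) and without the cells high in macrophage or keratinocyte markers 0.25 (adjusted p = 0.226). Keratinocyte markers summed to 10.47 per 10000 on the low and 0.824 on the high side and macrophage markers to 5.27 and 2.23 (medians over mice). The other 5 members had log2 fold changes between -0.19 (*Tph1*) and 0.12 (*Slc18a2*).

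The fourth comparison set the 522 MCs with a UMI of *Il13* or *Il6*, cytokines that activated MCs make, against the 1953 without, both after thinning to 1000 UMIs. *Hdc* was higher in cells with a cytokine UMI, 1 of 6 members tested, where 1.25% of 8424 genes passed, 0.617% higher and 0.629% lower. It rose from 59.3 to 96.0, 47.9 to 72.2 and 57.8 to 76.5 per 10000 in the WT mice and from 69.2 to 81.5, 55.2 to 81.5 and 48.7 to 60.1 in the *Tln1* ∆MC mice. All 6 mice moved one way, by a log2 fold change of 0.42 (SE 0.08, limma adjusted p = 0.0134). The cells without a cytokine UMI had more of the markers of other cells, with keratinocyte markers at 4.38 per 10000 against 0.644 and macrophage markers at 5.35 against 2.38 (medians over mice). *Hdc*, pooled over cells, was at 2.90 in the 15 cells high in keratinocyte and at 14.02 in the 32 high in macrophage markers. Of the 15, 1 barcode of library 8 of *Tln1* ∆MC mouse 3 and 1 of library 3 of WT mouse 2 had 399798 and 88414 transcripts outside Gm genes. They held 44.2 and 85.9 *Hdc* transcripts, where all 15 cells held 148 UMIs, so the level of 2.90 rests mostly on them. Without the cells high in either list *Hdc* remained past the threshold (0.36, limma adjusted p = 0.0325). The cells with a cytokine UMI were deeper (3096 transcripts outside Gm genes against 2221) and had fewer Gm transcripts (39.3% against 49.2%), and *Hdc* missed the threshold when the cells were chosen after thinning to 1000 UMIs outside Gm genes (0.23, adjusted p = 0.472) or before thinning (0.17, adjusted p = 0.492). It also missed it without the largest barcodes (0.31, adjusted p = 0.0931), without WT mouse 2 (0.38, adjusted p = 0.0615) and without *Tln1* ∆MC mouse 2 (0.34, adjusted p = 0.0582). *Slc6a4* was higher in 6 of 6 mice too, but with 0.20 (SE 0.08, limma adjusted p = 0.257) it did not pass.

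**Figure D3:**
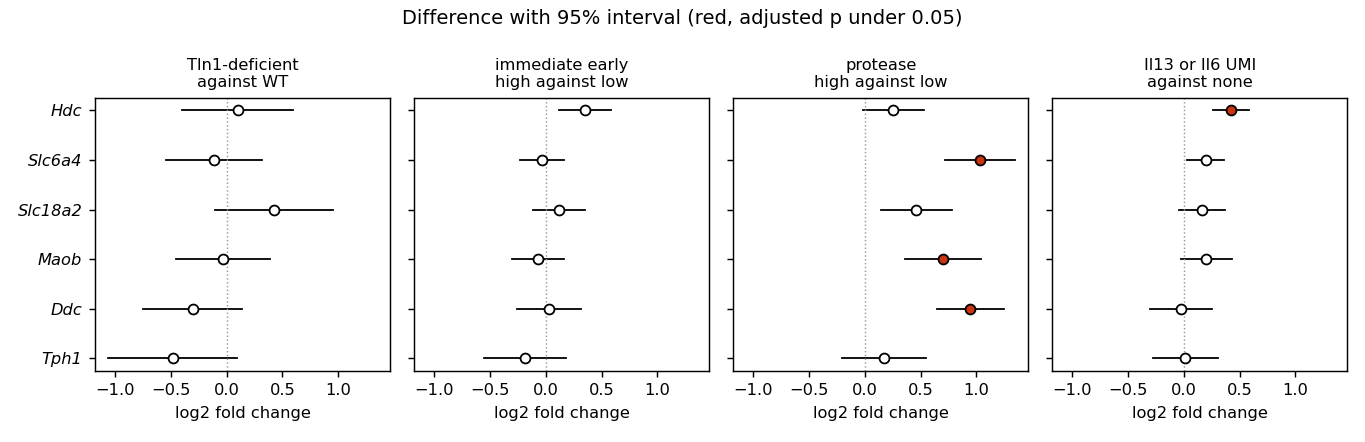
Log2 fold changes from limma with 95% intervals (bars) for the 6 genes tested, in 4 panels, 1 a comparison, with red points for an adjusted p under 0.05. Red are *Slc6a4*, *Ddc* and *Maob* for the proteases and *Hdc* for the cytokines, and in the genotype panel every interval spans 0.

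The genes around the path were followed in 8 lists of 66 genes, of which 59 were listed. Tetrahydrobiopterin, the cofactor of tryptophan hydroxylase, is made by GTP cyclohydrolase, and its gene *Gch1* was at 5.57 per 10000 (mean of 6 mice), above *Tph1* itself at 1.52. *Qdpr*, which recycles the cofactor, was at 0.564 and *Gchfr*, for the feedback regulator of GTP cyclohydrolase, at 0.445. *Pdxk*, for the kinase that makes the pyridoxal phosphate used by both decarboxylases, was at 4.54. Of amino acid uptake, *Slc3a2*, *Slc38a2* and *Slc7a5* were at 9.33, 8.92 and 3.90, where *Slc3a2* and *Slc7a5* encode the chains of a transporter of large neutral amino acids such as tryptophan and histidine. Of the list named breakdown, *Aldh2*, whose product oxidises the aldehydes that monoamine oxidases leave, was at 3.70. *Renbp* was at 0.855, and its place in that list does not show that its product breaks down these amines.

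Other carriers and the receptors were near 0. *Slc18b1*, *Slc6a2* and *Slc22a2* led the amine transport list with 0.0492, 0.0364 and 0.0364 per 10000, so that *Slc18a2* and *Slc6a4* stood far above the rest of their kind. *Hrh4* led the histamine receptors with 0.0945 and *Htr1b* the serotonin receptors with 0.305. Among relatives of the synthetic enzymes, *Gad2*, *Csad* and *Gadl1* were at 0.235, 0.221 and 0.0816, and *Tph2*, the hydroxylase of neurons, was at 0 in each of the 6 mice.

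**Figure D4:**
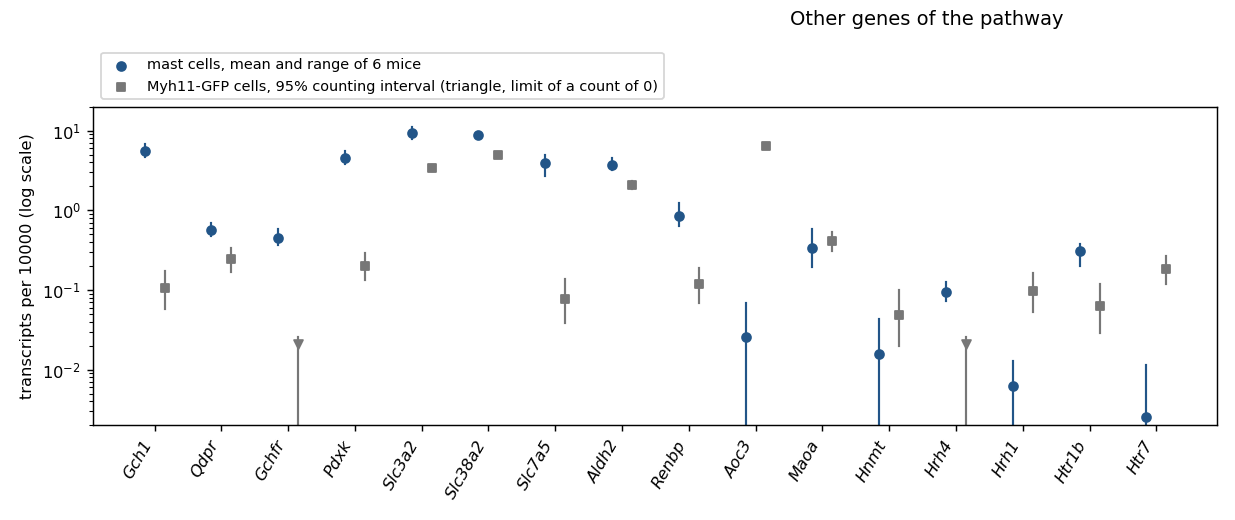
Levels of other genes of the pathway and *Hnmt* in transcripts per 10000 outside Gm genes on a log axis, in MCs (blue, mean and range of 6 mice) and *Myh11*-GFP cells (grey, exact Poisson 95% interval, with a triangle at the limit that a count of 0 allows). *Gch1* is at 5.57 in MCs and 0.104 in *Myh11*-GFP cells, and *Aoc3* at 0.0255 and 6.46.

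None of the 26 genes of the lists tested passed between genotypes, with a median log2 fold change of -0.07 against 0.02 for all genes. In the protease split 6 of 21 were higher and 2 lower, against 7.12% and 5.23% of all genes, with a median of 0.39 against 0.14 for all genes. Of the tetrahydrobiopterin list, 2 of 7 rose: *Pcbd1*, which recycles the cofactor, by 1.22 (SE 0.28, limma adjusted p = 0.0105) and *Gchfr* by 1.17 (SE 0.28, adjusted p = 0.0131). *Slc7a5* rose by 0.77 (adjusted p = 0.00544), and *Maoa* and *Gad2* fell by 1.40 (adjusted p = 0.0106) and 1.41 (adjusted p = 0.0126), while their relatives *Maob* and *Ddc* rose. These 5 remained past the threshold without the marker-high cells and without the largest barcodes, whereas *Pdxk* and *Slc3a2* (0.53 and 0.49) did not. With cells thinned to 1000 UMIs, *Slc7a5* missed the threshold (0.52, limma adjusted p = 0.161). *Pcbd1*, *Gchfr*, *Maoa* and *Gad2* had too few transcripts there to be tested. In the immediate early split *Slc38a2* and *Slc7a5* rose by 0.77 and 0.61 and *Gch1* fell by 0.57, 3 of 20 tested against 5.54% of all genes. Of these, *Slc38a2* stayed past the threshold with cells thinned to 1000 UMIs. *Slc7a5* and *Gch1* did not (0.61 and -0.43, limma adjusted p = 0.243 and 0.173). In the cytokine split *Slc3a2* rose by 0.37, 1 of 24 tested against 1.25% of all genes. It missed the threshold without the marker-high cells (0.33, limma adjusted p = 0.0671) and without the largest barcodes (0.28, adjusted p = 0.174). With thinning outside Gm genes it had 0.11 (adjusted p = 0.702).

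The libraries gave a further description of which genes varied with each member. Over 30 MC libraries, with the mean of the mouse taken off log2(level + 1), Pearson's r with 1624 genes of at least 1 transcript per 10000 was ranked. It is a description only, since the libraries share mice and all genes of a library share its depth and its largest barcodes. *Slc6a4* was most like *Lat* (r = 0.89), *Mcpt4* (0.89) and *Pilra* (0.88), and without the 5 largest barcodes these stood at 0.72, 0.67 and 0.67 and still led. *Ddc* was most like the tryptase gene *Tpsab1* (0.81, and 0.68 without the barcodes), *Zyx* (0.78 and 0.54) and *Tln1* (0.78 and 0.50). *Hdc* was most like *Plek* (0.88 and 0.65), *Basp1* (0.86 and 0.47) and *Akap2* (0.86 and 0.50). For *Slc18a2* these were *Itm2c* (0.84 and 0.47), *Slc45a3* (0.83 and 0.54) and *Vim* (0.82 and 0.31), for *Maob* *Serpinb1a* (0.84 and 0.58), *Stard13* (0.82 and 0.48) and *Cma1* (0.81 and 0.48), and for *Tph1* *Nptn* (0.68 and 0.58), *Tmbim6* (0.61 and 0.51) and *Lcp1* (0.61 and 0.52). Ranked without the barcodes, the genes in the order named stood at 2, 52 and 32 for *Hdc* and 1, 8 and 21 for *Ddc*. They stood at 10, 4 and 124 for *Slc18a2*, 8, 28 and 25 for *Maob* and 2, 9 and 5 for *Tph1*. Most of them thus no longer led. Between members r was lower without the largest barcodes: *Hdc* and *Slc18a2* had 0.75 with them and 0.09 without, and *Hdc* and *Slc6a4* 0.72 and 0.04, while *Slc6a4* and *Ddc* had 0.73 and 0.47 and *Tph1* and *Maob* 0.52 and 0.40.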

How the data were processed

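Single MCs from ear skin (30 libraries, 3 WT and 3 *Tln1* ∆MC mice) and *Myh11*-GFP cells (4 libraries, taken as 1 sample) were sorted by the authors with doublets excluded, and no doublet caller was run. The number after the genotype in the labels was taken as the mouse. The authors aligned reads to VM9 gene models of mm10 with BWA 0.6.2-r126, discarded reads with more than 1 place, merged overlapping loci and corrected the UMI counts for repeated identifiers by a binomial formula. The deposited counts are thus estimated transcripts per gene and cell without depth scaling. The members and lists were chosen with earlier results of these data known.

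Cells with over 1000 transcripts were summed by mouse, with 2477 MCs and 330 *Myh11*-GFP cells. A gene was tested if 3 or more sums reached 10 transcripts. The test was limma 3.58.1 (R 4.3.3) with a mean-variance trend on log2(transcripts per 1000000 outside Gm genes after TMM + 1) with Benjamini-Hochberg adjustment at 0.05, a scale that understates changes of low genes. Splits had the mouse as a block. Named were the 7 members, the 3 highest genes of each list, list genes called (all, although the rule gave the 3 of smallest p where over 5 were called) and the 3 genes most like each member, and *Aoc3*, *Htr7* and *Hrh1* were chosen after their values were seen. Some genes of the lists are counted but not reported here by name. Single values were compared by exact permutation. The fits were tested on simulated data. The main genotype fit did not pair mice by their number. Intervals and limits cover counting error only, and p-values the spread between these samples. Totals per mouse were 699401 to 5238325 transcripts outside Gm genes. Alternatives for normalization, filters, pseudocount, depth, cells, libraries and mice are in the closing section.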

Additional observations from a re-analysis of the deposited data

Results flagged for a closer look

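Of 46 groups of 4 to 10 libraries, 12 had a library far from the others of its mouse or sample, and chance flags about 1 in 20 groups. That rate does not hold where all other libraries of a group were at 0, since the library with a UMI is then always flagged. The count of 12 thus does not show an excess over chance. Library 8 of *Tln1* ∆MC mouse 3, which holds the largest barcode, was lowest for *Hdc* (27.3 per 10000, others 52.6 to 62.2), *Slc18a2* (2.97, others 5.83 to 8.80) and *Slc6a4* (5.53, others 9.94 to 12.3) and highest for *Hnmt* (0.0658, from 6 UMIs). Without its barcodes of over 30000 transcripts these were 57.01, 6.17, 10.9 and 0. Library 9 of *Tln1* ∆MC mouse 2 was highest for *Hdc*, at 70.3 against 60.7 to 62.1. The other libraries far apart rested on 1 or 2 UMIs. These were *Hnmt* in library 1 of WT mouse 3 (0.0605), library 2 of *Tln1* ∆MC mouse 1 (0.0415) and library 11 of *Tln1* ∆MC mouse 2 (0.0356), *Hdc* (0.0418), *Tph1* (0.0209) and *Maob* (0.0418) in *Myh11*-GFP library 13, and *Slc18a2* (0.0275) in library 14.

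The barcodes not in use also held transcripts of the members. The 2871 such barcodes of the MC libraries held *Hdc* at 52.6 per 10000, with 1598 UMIs in 1127 barcodes. *Slc6a4* was at 8.00, *Ddc* at 3.36, *Slc18a2* at 2.87, *Maob* at 2.64 and *Tph1* at 1.35, against a limit of 0.0988 for a count of 0. *Ddc* stood above its level in the cells of each mouse and *Slc18a2* below it. The 376 such barcodes of the *Myh11*-GFP libraries held 0 UMIs of *Hdc*. No level was corrected for UMIs of this kind.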

How the results depend on the processing

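Of 609 values recomputed under alternatives, 517 were labelled the same. Of the 384 that were log2 fold changes of members, 338 kept their direction and their side of the threshold. Among these were *Slc6a4* (0.69 to 1.13) and *Ddc* (0.69 to 0.99) in the protease split, under 14 of 14 alternatives each. For gene counts, shares and *Myh11*-GFP levels the label meant a value near the main one, and for level differences between genotypes the same sign. Between genotypes 0 members passed under any of 24 alternatives. Genes past the threshold between genotypes numbered 44 (against 0) with totals that include Gm genes, 2 with the background set as a block and 0 to 10 without 1 mouse, with 10 without *Tln1* ∆MC mouse 1 and 1 without WT mouse 1. With the mouse number as a replicate block the count was 0, with 427 at an unadjusted p under 0.05, and *Tph1* had -0.49 (limma adjusted p = 0.971). Same-numbered mice correlated at 0.337, -0.168 and -0.336, and WT and *Tln1* ∆MC mice of unlike number at -0.434 to 0.519. The number was therefore not used as a pairing in the main fit, but so few values cannot exclude one. Other counts were 91 for immediate early genes (against 387) and 98 for proteases (against 878) with cells thinned to 1000 UMIs, 561 for proteases with cells of over 1000 transcripts outside Gm genes and 409 to 677 without 1 mouse (lowest without WT mouse 1, and 536 without WT mouse 3), and for cytokines 38 (against 105) with thinning outside Gm genes and 57 to 107 without 1 mouse (57 without *Tln1* ∆MC mouse 2, 64 without *Tln1* ∆MC mouse 1 and 65 without WT mouse 2). The cause was not tested, apart from fewer UMIs after thinning.

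Estimates that turned sign passed no test. With totals that include Gm genes, *Slc6a4* and *Maob* had 0.060 and 0.14 between genotypes, and their levels differed by 0.394 and 0.240 per 10000. Without 1 mouse the log2 values ranged from -0.24 to 0.0075 for *Slc6a4* and -0.13 to 0.091 for *Maob* between genotypes, and in the splits from -0.019 to 0.16 for *Ddc* and -0.059 to 0.0079 for *Slc6a4* (immediate early) and from -0.092 to 0.084 for *Tph1* and -0.12 to 0.050 for *Ddc* (cytokine), and level differences from -2.58 to 7.76 for *Hdc*, -0.463 to 0.184 for *Maob* and -0.0167 to 0.00505 for *Hnmt*. Without marker-high cells, the *Hdc* and *Hnmt* differences were -0.557 and 0.00781, *Ddc* had -0.090 (immediate early), *Hdc* and *Tph1* -0.048 and -0.071 (protease) and *Tph1* -0.060 (cytokine). In the immediate early split, *Tph1* and *Slc6a4* had 0.019 and 0.0024 with 2 equal groups, *Tph1*, *Slc6a4* and *Maob* 0.29, 0.096 and 0.055 with thinned cells, and *Ddc* -0.012 without the library highest in macrophage markers, -0.00083 with over 1000 transcripts outside Gm genes and -0.026 without the largest barcodes. *Tph1* had -0.040 (protease) and -0.090 (cytokine) without the largest barcodes. In the cytokine split, *Tph1* and *Ddc* had -0.19 and 0.010 with cells chosen before thinning, *Tph1*, *Ddc* and *Maob* -0.059, 0.017 and -0.14 with thinning outside Gm genes, *Tph1* -0.047 without the library highest in macrophage markers and *Ddc* 0.017 without TMM.

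In *Myh11*-GFP cells the levels without 1 library ranged from 0 to 0.0188 for *Hdc*, 0 to 0.00940 for *Tph1*, 0 to 0.0104 for *Slc18a2* and 0 to 0.0188 for *Maob*, and *Slc18a2* was at 0 without marker-high cells. Mean shares over the mice at 2 or more UMIs, before thinning and with thinning outside Gm genes were 69.8%, 95.1% and 94.5% for *Hdc*, 1.10%, 25.8% and 12.8% for *Tph1*, 0.956%, 36.4% and 16.2% for *Ddc*, 7.23%, 68.9% and 45.6% for *Slc18a2*, 18.3%, 76.2% and 61.02% for *Slc6a4* and 2.48%, 47.9% and 26.4% for *Maob*, and 0.447% before thinning for *Hnmt*. Alternatives on the set of barcodes in use, on the largest barcodes, on marker-high cells or the odd library in the cytokine split, on thinning outside Gm genes and on cells of over 1000 transcripts outside Gm genes in the splits were chosen after seeing the data. The planned count tests were not run, since the deposited values are corrected transcripts. Having 3 mice a genotype limits what can be found, and depth limits *Tph1* and *Hnmt* per cell.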

Other observations

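The cells sorted for *Myh11*-GFP, although almost without the members, expressed another enzyme of amine breakdown. *Aoc3*, for a membrane amine oxidase of smooth muscle and fat that oxidises primary amines, was at 6.46 per 10000 (exact Poisson 95% interval 6.06 to 6.89, counting error only), from 931 UMIs, and at 6.65, 5.56, 7.44 and 5.92 in libraries 13 to 16. It was chosen after its values were seen, like *Htr7* and *Hrh1* below. In MCs *Aoc3* was at 0.0255 (mean of 6 mice). Among the *Myh11*-GFP cells, the 110 highest in the contractile genes had *Aoc3* at 11.2 (10.3 to 12.2) and the 110 lowest at 2.26 (1.88 to 2.70), with no test since the number of mice is unknown. *Aldh2*, for an aldehyde dehydrogenase, was at 2.05. The serotonin receptor gene *Htr7* had 26 UMIs (0.181 per 10000) and the histamine receptor gene *Hrh1* had 14 (0.0972), against 0.00256 and 0.00628 in MCs.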
